A study of Mus musculus with 4 samples.

Results

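The transcripts of the EGF receptor family were followed through 4 cultures of mouse melanocytes. The set comprised 10 genes by name: the receptors Egfr, Erbb2 and Erbb3, the ligands Tgfa, Hbegf, Ereg, Btc and Nrg1, and the inhibitors Errfi1 and Lrig1. The arrays carried 24 probe sets for these 10 genes, out of 45101 in all, and the genes were 10 of 18193 that could be named by a single symbol. The cells were melan-a, a cultured mouse melanocyte line. EGF was added to Hmhi-MYC-TA cells, to Hmhi-Miz1 kd cells (pS-Miz1 in another label) and to Hmhi cells, and the remaining culture, also of Hmhi cells, had none. All 4 were starved for 14 days in DMEM with dialyzed serum, without the TPA and cholera toxin of the growth medium, and EGF was given at 100 ng/ml. Each culture was measured on 1 Affymetrix mouse expression array, so the study has no replicates. Hmhi and MYC-TA are not spelled out in the labels, and whether the cells carry an introduced EGF receptor is not given in the sources used here.

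EGF receptors are tyrosine kinases of the cell surface that act in pairs. EGF, TGF-alpha and amphiregulin bind Egfr, betacellulin, epiregulin and HB-EGF bind both Egfr and Erbb4, and the neuregulin Nrg1 binds Erbb3 and Erbb4. Erbb2 has no known ligand and serves as the partner of the others, and Erbb3, whose own kinase is weak, couples strongly to PI3K. The ligands are made as membrane-anchored precursors and are released by ADAM proteases. Errfi1 (also called Mig6) binds the kinase of an activated receptor and blocks it, and Lrig1 is a membrane protein that lowers the amount of ERBB receptors. In the pigment lineage, neuregulin and Erbb3 are known for their part in neural crest cells and Schwann cell precursors, from which melanocytes can arise.

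All levels are log2 signals as deposited, and each array had a median of 6.66 over its probe sets that are not controls. Of the 24 probe sets, 15 reached that median on at least 1 array and 9 did not on any. Signals below the median are treated here as dim, since background compresses their differences. The probe set brightest on average stood for its gene, and a comparison counted it if the brighter array was at or above the median. By that rule 9 of the 10 genes were counted in every comparison, and Ereg in none. No test was possible with 1 array per culture. The only spread available was the SD between probe sets of the same gene within a comparison, a technical value of 0.32 for Hmhi EGF minus Hmhi starved, 0.22 for the array labelled Miz1 kd minus Hmhi EGF, 0.25 for MYC-TA minus Hmhi EGF and 0.41 for MYC-TA minus the array labelled Miz1 kd. It does not hold the spread between cultures, RNA samples or hybridizations.

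The labels were checked first. Zbtb17, the gene of Miz-1, read 9.08 in the array labelled Miz1 kd, against 8.72 in Hmhi EGF, on its brighter probe set. Its dimmer set read 6.72 and 6.51 in the same arrays. Both sets were thus higher than in Hmhi EGF, where a knockdown would lower them, so every direction below belongs to that array as labelled. Of 11 melanocyte markers, 8 were at or above the median in MYC-TA, 8 in the array labelled Miz1 kd, 9 in Hmhi EGF and 8 in Hmhi starved. Their mean log2 level was 8.79, 9.29, 9.51 and 9.09 in that order. Tyr and Ednrb were dim on all 4 arrays. Oca2 and Slc45a2 were lowest in MYC-TA, at 6.21 and 6.97, against 8.29 to 10.09 and 8.05 to 9.70 in the others. Mitf, Sox10, Tyrp1 and Mlana were also lowest in MYC-TA, by less. They read 9.65, 12.96, 13.05 and 11.32 there, against 9.91, 13.21, 13.07 and 11.95 in Hmhi EGF. Kit went the other way and was highest in MYC-TA, at 7.53, against 6.12 to 7.04 in the others. Dct and Pmel in MYC-TA, at 11.08 and 8.06, were below Hmhi EGF only. Keratinocyte markers were at or above the median for 2 of 8 genes on every array, and Krt14, Trp63, Dsp and Cdh1 were dim throughout. Their mean level was 5.93, 5.83, 5.88 and 5.89. Of 7 fibroblast markers, 3, 2, 3 and 3 reached the median, with mean levels of 7.47, 6.64, 6.94 and 6.96. Col3a1 had 9.69 in MYC-TA, against 6.25 to 7.21 in the others. The rest of the fibroblast list did not share this pattern. Dcn was also highest in MYC-TA, at 11.56, but nearly as high in Hmhi starved, at 11.50. Pdgfra read 7.93 in MYC-TA, 8.24 in the array labelled Miz1 kd, 8.21 in Hmhi EGF and 7.40 in Hmhi starved. Col1a2 was highest in Hmhi starved, at 6.97, and Col1a1, Lum and Thy1 were dim on every array. Among 4 immune markers Lyz2 and Csf1r were at or above the median on every array, and Ptprc and Cd14 on none. Csf1r split with EGF, at 6.72 in MYC-TA, 6.74 in Hmhi EGF and 6.87 in the array labelled Miz1 kd, against 9.41 in Hmhi starved. The mean immune level was 6.66, 7.14, 7.16 and 7.66. Of 3 Schwann cell markers Mbp and S100b were bright and Ngfr was dim on every array, with mean levels of 10.42, 10.22, 10.41 and 10.61. In bulk RNA, fewer cells of a type and less RNA per cell cannot be told apart. The part of these markers in the results below was not tested.

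The promoters of 4 members are shown because the results turn on these genes. Lrig1 and Btc had some of the largest differences with EGF. Tgfa and Errfi1 had their lowest levels in the array labelled Miz1 kd, on their brightest sets. Each runs 5′ to 3′ from 250 bases before to 50 bases after a transcription start of RefSeq (GRCm38.p6), and capitals mark motif matches. Lrig1 lies at chr6:94700096-94700395 on the minus strand, Btc at chr5:91402945-91403244 on the minus strand, Tgfa at chr6:86194972-86195271 on the plus strand, and the second of the Errfi1 starts at chr4:150854820-150855119 on the plus strand.
Lrig1: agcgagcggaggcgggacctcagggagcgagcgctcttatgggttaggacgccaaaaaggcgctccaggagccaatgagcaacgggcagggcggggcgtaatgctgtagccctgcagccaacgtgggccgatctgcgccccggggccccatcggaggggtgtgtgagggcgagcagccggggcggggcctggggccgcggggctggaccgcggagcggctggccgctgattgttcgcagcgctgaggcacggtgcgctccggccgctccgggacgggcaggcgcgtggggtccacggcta
Btc: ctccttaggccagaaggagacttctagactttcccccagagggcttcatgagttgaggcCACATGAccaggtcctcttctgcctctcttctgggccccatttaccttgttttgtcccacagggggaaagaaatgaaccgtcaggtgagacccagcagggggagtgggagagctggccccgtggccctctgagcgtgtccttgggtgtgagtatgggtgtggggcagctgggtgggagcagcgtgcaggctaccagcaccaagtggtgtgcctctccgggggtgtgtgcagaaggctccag
Tgfa: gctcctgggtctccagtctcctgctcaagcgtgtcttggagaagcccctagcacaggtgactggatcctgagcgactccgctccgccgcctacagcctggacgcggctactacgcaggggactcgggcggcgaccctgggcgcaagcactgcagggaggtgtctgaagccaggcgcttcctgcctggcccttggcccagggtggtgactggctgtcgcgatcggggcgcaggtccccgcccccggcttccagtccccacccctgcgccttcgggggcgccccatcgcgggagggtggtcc
Errfi1: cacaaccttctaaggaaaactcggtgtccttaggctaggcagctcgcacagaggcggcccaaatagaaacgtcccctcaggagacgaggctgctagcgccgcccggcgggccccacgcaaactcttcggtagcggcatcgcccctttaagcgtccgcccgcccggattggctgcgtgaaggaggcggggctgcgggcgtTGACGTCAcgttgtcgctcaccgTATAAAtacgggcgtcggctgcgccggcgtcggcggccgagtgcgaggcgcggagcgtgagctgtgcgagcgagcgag
The motifs searched on both strands were the E-box CACGTG (bound by MYC with MAX), the M-box TCATGTG (bound by MITF), the AP-1 site TGANTCA, the cAMP response element TGACGTCA, the CArG box (bound by SRF) and TATAAA. Over all 32851 promoters of the table these occurred in 7.15%, 3.77%, 7.81%, 1.79%, 1.63% and 13.6%, in the same order. The Btc promoter holds 1 M-box, on the minus strand of the printed sequence. The Errfi1 promoter holds a cAMP response element followed by TATAAA. No motif of the list was found in the Lrig1 or Tgfa window, nor in those of Egfr, Erbb2 and the other Errfi1 start. In all, 7 promoters of 6 members were matched, and those of Erbb3, Ereg, Nrg1 and Hbegf are not shown. The GC content was 73.0% for Lrig1, 70.7% for Tgfa, 66.7% for this Errfi1 start and 60.3% for Btc, against a median of 52.7% over all promoters.

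**Figure D1:**
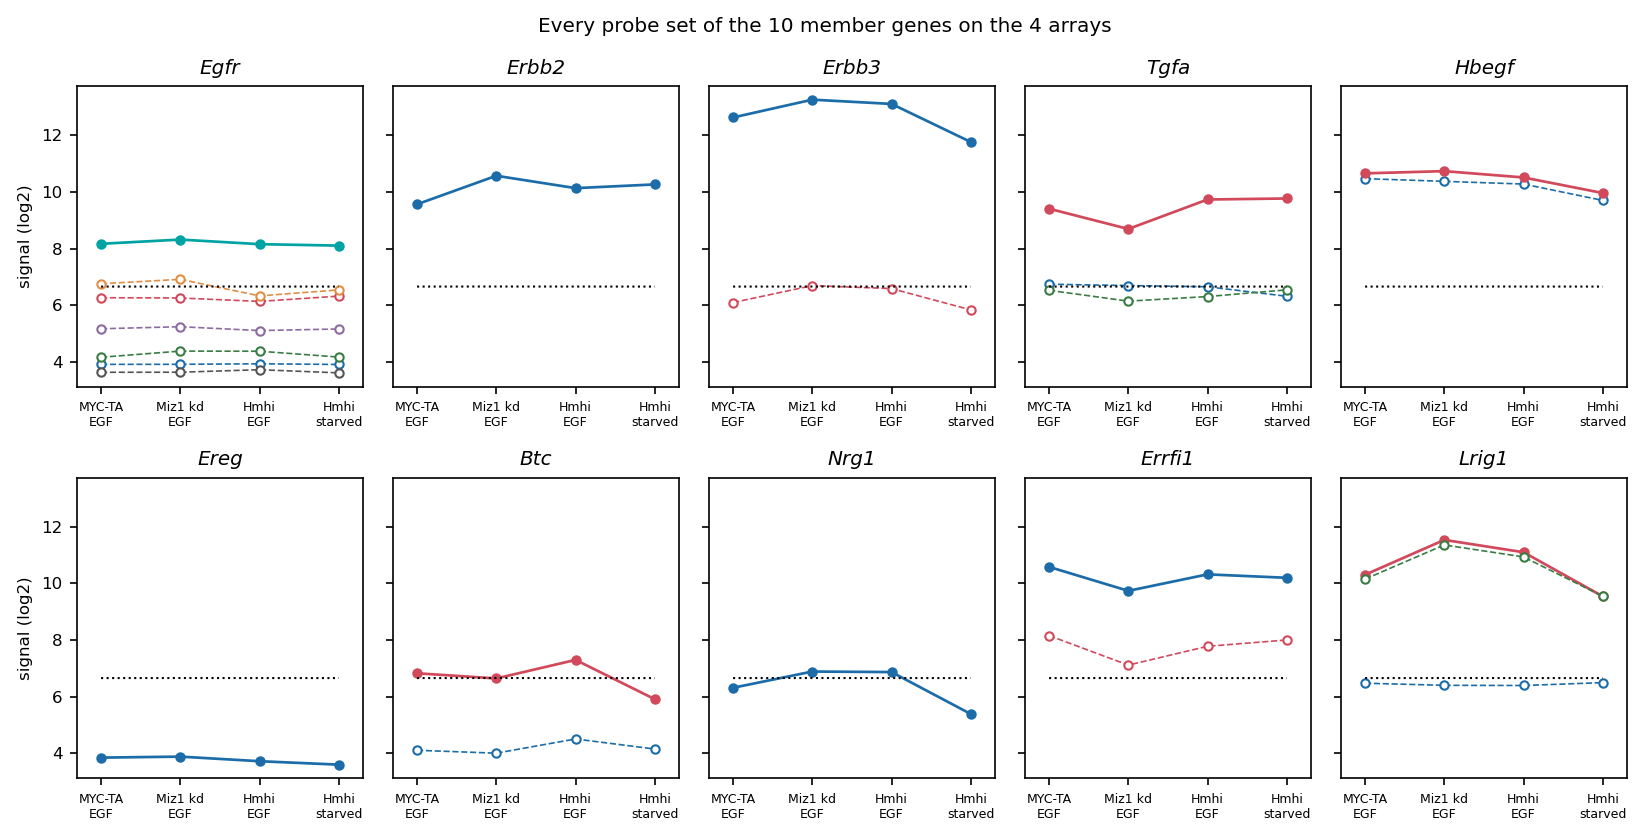
Log2 signal (y axis) of every probe set of the 10 genes on the 4 arrays (x axis). Filled points with solid lines are the set that represents the gene, open points with dashed lines are its other sets, and the dotted line is the array median of 6.66. Lrig1, Erbb3, Nrg1 and Btc are lowest in Hmhi starved on their representing sets, and Ereg lies below the median throughout. Errfi1 dips in the array labelled Miz1 kd on both sets, and Tgfa on its brightest set.

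Among the receptors, Erbb3 was the one that differed with EGF. Its brighter probe set read 12.63 in MYC-TA, 13.26 in the array labelled Miz1 kd, 13.11 in Hmhi EGF and 11.76 in Hmhi starved. The 3 EGF arrays were thus all above the starved array. Hmhi EGF was higher than Hmhi starved by 1.34, which is 2.54-fold. The dimmer set read 6.10, 6.69, 6.59 and 5.84, with the same order of arrays and a difference of 0.75. MYC-TA lay below Hmhi EGF by nearly the same amount on both sets, at -0.48 and -0.49. The array labelled Miz1 kd differed from Hmhi EGF by 0.15 and 0.10, less than the SD between probe sets of 0.22.

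Erbb2, the partner receptor, had 1 probe set, at 9.56 in MYC-TA, 10.57 in the array labelled Miz1 kd, 10.13 in Hmhi EGF and 10.27 in Hmhi starved. With EGF it differed by -0.13, within the SD between probe sets of 0.32. It was highest in the array labelled Miz1 kd and lowest in MYC-TA. The difference from Hmhi EGF was -0.57 in MYC-TA and 0.44 in the array labelled Miz1 kd, and MYC-TA minus the array labelled Miz1 kd was -1.01, just past 2-fold.

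Egfr, the receptor of the added ligand, was nearly level over the 4 arrays. Its brightest probe set read 8.17, 8.32, 8.16 and 8.11 in MYC-TA, the array labelled Miz1 kd, Hmhi EGF and Hmhi starved. The difference with EGF was 0.05. Of its other 6 sets, 5 were below the median on every array, between 3.61 and 6.32. The sixth read 6.76, 6.92, 6.33 and 6.54 in the same order. It was higher than in Hmhi EGF by 0.43 in MYC-TA and by 0.59 in the array labelled Miz1 kd, where the brightest set gave 0.01 and 0.16. The probe sets of Egfr therefore disagree on whether it was higher in those arrays, and the disagreement lies close to the median.

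Among the ligands, Nrg1 and Btc were higher with EGF by over 2-fold, from dim levels. Nrg1, a neuregulin that binds Erbb3, read 6.32 in MYC-TA, 6.89 in the array labelled Miz1 kd, 6.87 in Hmhi EGF and 5.39 in Hmhi starved on its single probe set. Hmhi EGF was higher than Hmhi starved by 1.48, or 2.79-fold. The array labelled Miz1 kd stood within 0.02 of Hmhi EGF, and MYC-TA was lower than Hmhi EGF by a log2 difference of -0.56, back below the median. Since the starved level was dim, background limits the size of the EGF difference.

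Btc, betacellulin, read 6.83 in MYC-TA, 6.65 in the array labelled Miz1 kd, 7.30 in Hmhi EGF and 5.91 in Hmhi starved on its brighter probe set. Hmhi EGF was the highest array, by 1.39 (2.61-fold) over Hmhi starved. Both other EGF arrays stood between these, with differences from Hmhi EGF of -0.47 in MYC-TA and -0.65 in the array labelled Miz1 kd. The other set was dim on every array, at 4.11, 4.01, 4.51 and 4.15, and differed with EGF by 0.36. Its differences from Hmhi EGF were -0.40 in MYC-TA and -0.50 in the array labelled Miz1 kd. Both sets thus put Hmhi EGF highest, while the mean of both sets gave 0.87 for the EGF difference, under 2-fold.

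Hbegf, the heparin-binding ligand, had a pair of bright probe sets that moved alike. The brighter set read 10.66, 10.73, 10.51 and 9.96 in MYC-TA, the array labelled Miz1 kd, Hmhi EGF and Hmhi starved, and the other 10.47, 10.37, 10.28 and 9.70. All 3 EGF arrays were above the starved array on both sets. Hmhi EGF was higher than Hmhi starved by 0.55 and 0.58, beyond the SD between probe sets but under 2-fold. Among the EGF arrays the largest difference from Hmhi EGF on either set was 0.22, and the sets disagreed on which of the other arrays was highest.

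Tgfa, the ligand TGF-alpha, was 2-fold apart on 1 of its 3 probe sets only. That set, the brightest, read 9.41 in MYC-TA, 8.69 in the array labelled Miz1 kd, 9.73 in Hmhi EGF and 9.77 in Hmhi starved. It had a log2 difference of -1.04 for the array labelled Miz1 kd minus Hmhi EGF, and MYC-TA minus Hmhi EGF was -0.33. The other sets read 6.74, 6.70, 6.65 and 6.32, and 6.53, 6.15, 6.31 and 6.54, in the same order. In the array labelled Miz1 kd they differed from Hmhi EGF by 0.04 and -0.16. The mean of the 3 sets gave -0.39, so the 2-fold difference rests on a single set, and the remaining sets are near the median, where differences are compressed. With EGF, the brightest set differed by -0.04. The other sets, below the median in both arrays, gave 0.33 and -0.24, so the sets disagreed in sign. Ereg, epiregulin, read 3.85, 3.89, 3.72 and 3.60 and was dim on all 4 arrays, so no difference is given for it.

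The inhibitors did not move together. Lrig1 read 10.31 in MYC-TA, 11.54 in the array labelled Miz1 kd, 11.10 in Hmhi EGF and 9.54 in Hmhi starved on its brightest probe set. A second bright set gave 10.15, 11.36, 10.94 and 9.55. Both put the 4 arrays in the same order, with Hmhi starved lowest. Hmhi EGF was higher than Hmhi starved by 1.56 and 1.39, or 2.94-fold and 2.62-fold. The array labelled Miz1 kd was higher than Hmhi EGF by 0.44 and 0.42, and MYC-TA minus Hmhi EGF was -0.79 and -0.78. The third set of Lrig1 was dim and level, at 6.48, 6.40, 6.40 and 6.50, and its EGF difference of -0.10 has the opposite sign. The mean of the 3 sets gave 0.95, just under 2-fold.

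Errfi1, the intracellular inhibitor, read 10.58 in MYC-TA, 9.74 in the array labelled Miz1 kd, 10.32 in Hmhi EGF and 10.20 in Hmhi starved on its brighter probe set. The other set read 8.16, 7.12, 7.78 and 8.004. Both sets were lowest in the array labelled Miz1 kd and highest in MYC-TA. The array labelled Miz1 kd minus Hmhi EGF was -0.58 and -0.66, beyond the SD between probe sets but under 2-fold. MYC-TA minus Hmhi EGF was 0.26 and 0.38. With EGF the sets disagreed in sign, at 0.12 and -0.22, both within the SD between probe sets of 0.32.

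Hmhi EGF was set against Hmhi starved for the response to 14 days of EGF. Lrig1, Nrg1, Btc and Erbb3 were at least 2-fold higher, and 0 members were at least 2-fold lower. All genes counted the same way had 7.98% of 11461 past 2-fold upward and 4.96% downward. Of these 4 members, Nrg1 and Btc passed the level filter only through Hmhi EGF, the array where they are high, so the difference itself admitted them to the count of 9. Raising that filter to the 75th percentile left a count of 2, Lrig1 and Erbb3. Hbegf was also above the SD between probe sets, and Egfr, Erbb2, Tgfa and Errfi1 were within it on their brightest sets. The median difference was 0.55 over the 9 counted members and 0.34 over all 10, against 0.006 over all genes. Every counted member lay inside the central 95% of all genes, which ran from -1.37 to 1.81. The members and the comparison were proposed with results of these arrays known, so the share is a description.

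The array labelled Miz1 kd was set against Hmhi EGF for the effect of the construct named in its label. Tgfa was the 1 member of 9 at least 2-fold lower, where 2.5% of 11394 genes were at least 2-fold lower, and 0 members were at least 2-fold higher, against 0.29% of genes. Tgfa, at -1.04, was just outside the central 95% of all genes, which ran from -0.998 to 0.557. Beyond the SD between probe sets of 0.22 were also Btc at -0.65 and Errfi1 at -0.58, and on the positive side Erbb2 at 0.44 and Lrig1 at 0.44, while Hbegf, at 0.223, was level with it. The median of the 9 counted members was 0.15, against 0.018 over all genes. Among the 9, Btc passed the level filter only through Hmhi EGF, the array where it is higher.

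MYC-TA with EGF was set against Hmhi EGF for the effect of MYC-TA. No member was 2-fold apart in either direction, where 1.3% of 11534 genes were past 2-fold upward and 1.65% downward. Differences beyond the SD between probe sets of 0.25 were negative for Lrig1, Erbb2, Nrg1, Erbb3, Btc and Tgfa, from -0.79 for Lrig1 to -0.33 for Tgfa, and positive for Errfi1 at 0.26. The value of Tgfa rests on its brightest set. The other sets of Tgfa gave 0.09 and 0.22, the opposite sign, and the mean of its sets was -0.005. For Lrig1 the second bright set gave -0.78 and only the dim set differed, at 0.08. The mean of all Lrig1 sets, the dim set included, was -0.498. The median of the 9 counted members was -0.47, against 0.045 over all genes. Among the 9, Nrg1 passed the level filter only through Hmhi EGF, the array where it is higher. Both this comparison and the preceding one use the Hmhi EGF array.

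MYC-TA was also set directly against the array labelled Miz1 kd. Lrig1 and Erbb2 were at least 2-fold lower in MYC-TA, at -1.23 and -1.01, where 4.26% of 11613 genes were at least 2-fold lower. The second bright set of Lrig1 gave -1.21. No member was at least 2-fold higher on its representing set, against 6.72% of genes, although Errfi1 was higher by 0.85 on that set and by 1.04 on the other. Tgfa was higher by 0.72 in MYC-TA, while Erbb3 and Nrg1 stood at -0.63 and -0.57. The central 95% of all genes ran from -1.21 to 1.47, so Lrig1 alone lay outside it. The median of the 9 counted members was -0.15, against 0.039 over all genes. Nrg1 passed the level filter only through the array labelled Miz1 kd, and Btc only through MYC-TA, in each case the higher array.

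**Figure D2:**
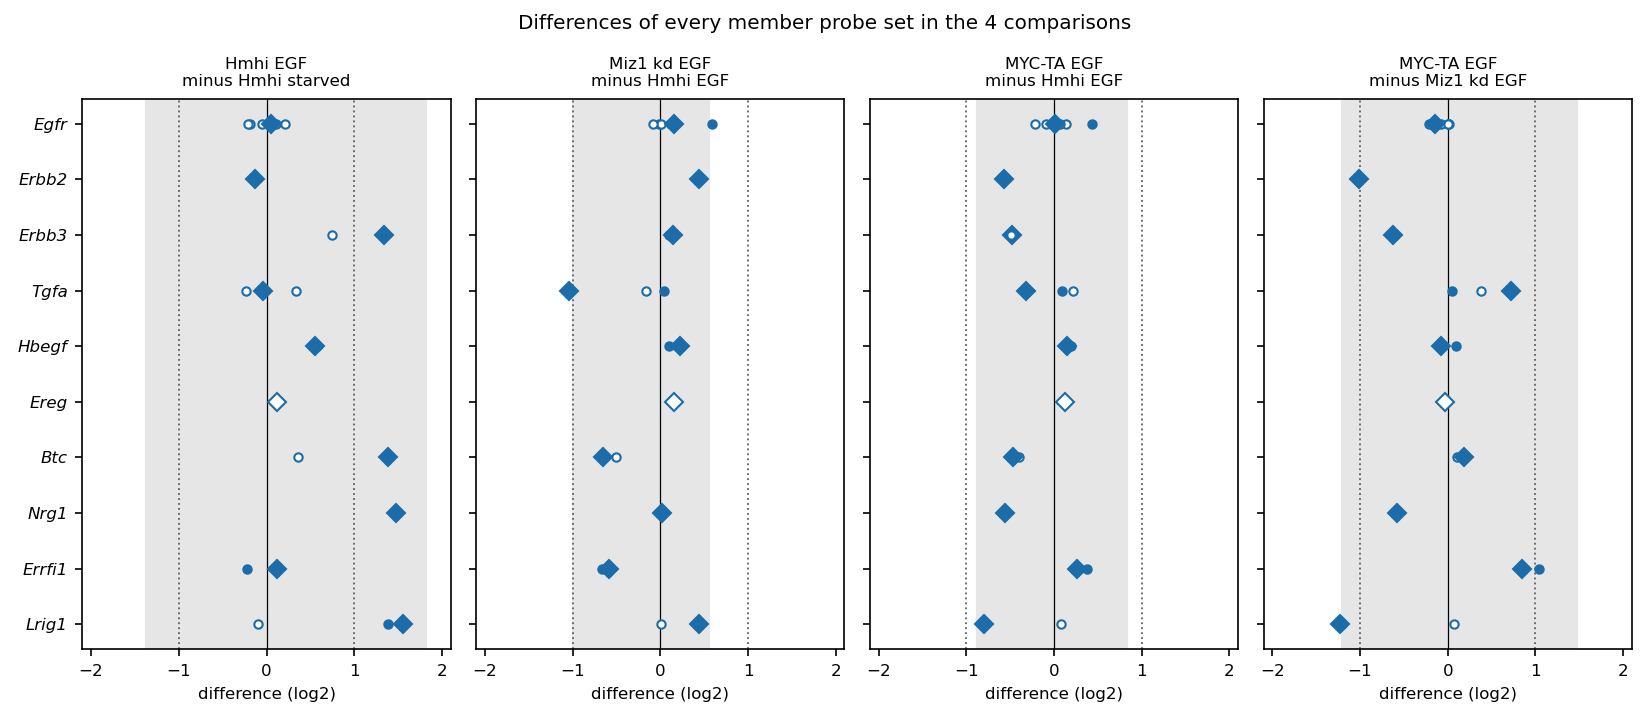
Log2 differences (x axis) of every probe set of the 10 genes (y axis) in the 4 comparisons. Diamonds are the sets that represent a gene, circles its other sets, open symbols are below the array median on the brighter array, grey bands hold the central 95% of all genes, and dotted lines mark 2-fold. Lrig1, Nrg1, Btc and Erbb3 lie past 2-fold in the first panel, Tgfa in the second on 1 set, and Lrig1 and Erbb2 in the last.

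The members differed in the order of the arrays. Erbb3, Nrg1 and Lrig1 shared one order, with the array labelled Miz1 kd highest, then Hmhi EGF, MYC-TA and Hmhi starved. This was 3 of the 9 counted members, and 10.4% of 11805 genes had it. For Nrg1 the first 2 arrays differed by 0.02 and for Erbb3 by 0.15, both within the SD between probe sets, so their order is not resolved. On their brightest sets, Tgfa and Errfi1 were both lowest in the array labelled Miz1 kd. Another Tgfa set was lowest in Hmhi starved. Erbb2 was lowest in MYC-TA. Such low points are not rare among all genes. The most common order ending in the array labelled Miz1 kd held 10.6% of genes, and the most common ending in MYC-TA held 7.11%. Several other orders end in each of these arrays, so the full share of genes lowest there is larger. The orders of Tgfa, Errfi1 and Erbb2 themselves held 2.49%, 5.68% and 4.13% of genes.

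**Figure D3:**
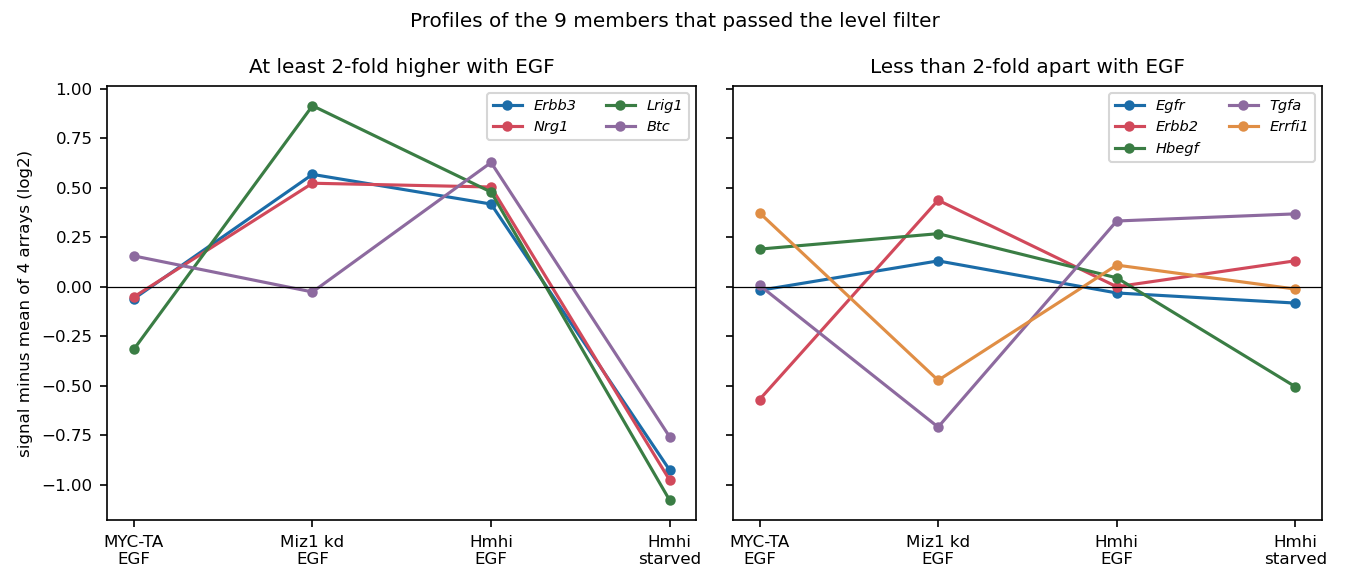
Log2 signal of each member minus its own mean over the 4 arrays (y axis) by array (x axis), for the 9 members counted in the comparisons, on the set that represents each gene. Left, the 4 genes past 2-fold upward with EGF; right, the other 5 members, among which Tgfa and Errfi1 are lowest in the array labelled Miz1 kd and Erbb2 in MYC-TA.

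Further genes of the pathway were taken from 6 lists of 90 genes, of which 82 were named on the arrays and 76 were counted in every comparison. With EGF, 9 of the 76 were past 2-fold upward and 3 downward. These shares were 11.8% and 3.95%, near the 7.98% and 4.96% of all genes. Of the 9, Adam12 and Etv4 passed the level filter only through Hmhi EGF, the array where they are high. Against Hmhi EGF, 0 of 76 were 2-fold apart in MYC-TA, where 1.3% of all genes were higher and 1.65% lower. In the array labelled Miz1 kd it was also 0 of 76, where 0.29% of all genes were higher and 2.5% lower. MYC-TA minus the array labelled Miz1 kd had 2 of 76 higher and 1 lower, beside 6.72% and 4.26% of all genes.

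Among 8 counted genes of ligand release, 3 were at least 2-fold higher with EGF, where 7.98% of all genes were, and 0 were lower. These were the proteases Adam12, Adam19 and Adam17. Adam12 passed the level filter only through Hmhi EGF, the array where it is high. The median of the 8 was 0.95, against 0.006 over all genes, and Adam10 and Adam9 stood at 0.43 and -0.05. Adam12, which cleaves HB-EGF among others, read 10.35 in MYC-TA, 9.90 in the array labelled Miz1 kd, 10.65 in Hmhi EGF and 5.98 in Hmhi starved. Adam19, which can process neuregulin, read 8.93, 9.86, 9.60 and 7.30. Both were far lower in the starved array than in any EGF array. Adam17, the main protease for TGF-alpha, amphiregulin and HB-EGF, was higher by 1.07 on its brightest set and by 0.27 and 0.68 on the others. Rhbdf1 and Rhbdf2, the iRhoms that bring Adam17 to the cell surface, were higher by 0.98 and 0.91.

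Other negative regulators of the receptors, such as the ubiquitin ligases Cbl and Cblb, had 0 of 12 genes 2-fold apart with EGF. Of all genes, 7.98% were higher and 4.96% lower. The median of the 12 was 0.37, against 0.006 over all genes, and 8 of 12 differences were above 0. Lrig3, a relative of Lrig1, was at 0.71. The 2 counted genes among the other receptors and ligands were Egf and Nrg2, at 0.16 and -0.15 with EGF. The probe sets of Nrg2 disagreed. Its other sets, below the median in both arrays, gave 0.015 and 0.899 with EGF. The set with 0.899 gave 1.484 for MYC-TA minus the array labelled Miz1 kd, against 0.159 on the representing set. Erbb4, Epgn, Nrg3 and Nrg4 were dim on all arrays.

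Adaptors and effectors had a median of -0.18 over 23 genes, against 0.006 over all genes. With EGF, 4.96% of all genes were at least 2-fold lower, and so was 1 of the 23. This was Gab1, a docking protein that links receptors to PI3K and Shp2, which read 11.02 in MYC-TA, 10.26 in the array labelled Miz1 kd, 10.46 in Hmhi EGF and 11.95 in Hmhi starved. Its 3 probe sets gave EGF differences of -1.57, -1.49 and -1.45. Genes of receptor endocytosis and sorting had a median of -0.34, against 0.006 over all genes. Of these 15, 0 were past 2-fold, where 7.98% of all genes were higher and 4.96% lower, and 2 were above 0.

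ERK-responsive genes showed the widest range of these lists with EGF, from -3.35 to 3.10, with a median of 0.89, or 0.375 with the mean of each gene's sets. Of 16 counted genes, 6 were at least 2-fold higher, among them Etv5 by 3.10 and Spry4 by 2.06, and 2 were at least 2-fold lower, Fos at -3.35 and Egr1 at -2.69. Over all genes 7.98% were higher and 4.96% lower. Etv4, among the 6, passed the level filter only through Hmhi EGF, the array where it is high. Etv5 is a transcription factor and Spry4 a feedback inhibitor of the ERK pathway. Fos and Egr1 encode immediate early transcription factors. Spry4 differed by 0.35 to 2.06 between its 4 sets, and Etv5 by 2.82 to 3.10 between its 3 sets. Fos and Egr1 were higher in MYC-TA than in the array labelled Miz1 kd by 1.15 and 1.10, while Phlda1 was lower, at -1.16.

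**Figure D4:**
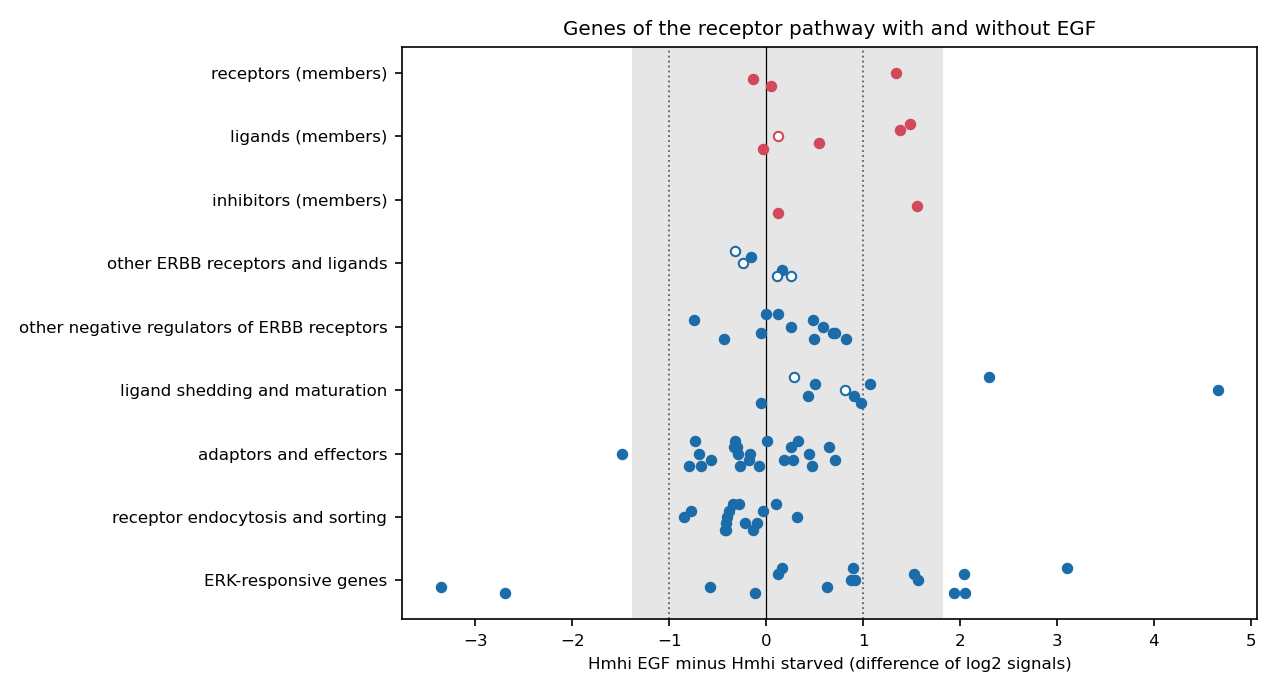
Difference of log2 signals, Hmhi EGF minus Hmhi starved (x axis), for the members (red) and 6 further lists of the pathway (blue), 1 point a gene. Open points are below the array median, the grey band holds the central 95% of all genes and dotted lines mark 2-fold. Adam12 and Adam19 stand right of the band among genes of ligand release, and Fos and Egr1 left of it among ERK-responsive genes.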

How the data were processed

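Total RNA (100 ng per array) was labelled with the IVT-Express kit, per the labels' protocols, and 1 array was hybridized per culture. The deposited values, between 2.937 and 15.121, were read as log2 signals. The authors' log base, summarization and normalization are not given in the sources used here. The sorted columns differ by at most 0.004, so the arrays had been equalized before deposit, which would hide a shift common to all genes. Values were not centred per gene, and each difference is the first array named minus the second.

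Probe sets were named with the platform annotation of 2016: 34945 had 1 symbol, 932 had several, 9160 had none and 64 were controls. All 10 members matched RefSeq by Entrez identifier. Members, lists and rules were chosen with earlier results of these data known. Named genes were all members, Zbtb17, up to 4 genes per list and comparison that were at least 2-fold apart, and the 3 nearest profiles of each member with a range of at least 1. Other list members are named for their role, chosen after their values were seen. Differences were counted at a log2 size of 1.0, and the steps were run on simulated data. There all probe sets of a changed gene were shifted alike, by more than that size. The run therefore checks the code only, and cannot show how disagreement between sets affects the results. No test or p-value was possible. The number of arrays limits the precision. The alternatives were a common median, quantile normalization, loess (span 0.4), the level filter dropped or raised to the 75th percentile, a gene's sets averaged, and sets with suffixes such as _s_at or _a_at left out (plain sets). Python 3.11.15, pandas 2.3.3, numpy 2.4.6, statsmodels 0.14.6 and matplotlib 3.10.9 were used.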

Additional observations from a re-analysis of the deposited data

How the results depend on the processing

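No paired analysis was possible because there was 1 array a culture, and leaving out an array leaves no comparison. No pseudocount was tried on values already in log2. Quantile normalization and a common median could move nothing, since the arrays had been equalized before deposit, so they say nothing about stability. Under loess, all 7 member differences of at least 2-fold stayed past 2-fold in the same direction. The level filter alters no difference, and raised to the 75th percentile it no longer counts Nrg1 and Btc. Averaging a gene's sets kept 3, and plain sets alone kept 5. The 3 kept by averaging were Erbb3 and Nrg1 with EGF and Erbb2 in MYC-TA minus the array labelled Miz1 kd. Nrg1 and Erbb2 have 1 set each, which averaging cannot change, so Erbb3 was the only one with several sets that kept its difference. For MYC-TA minus Hmhi EGF, the mean of sets gave -0.005 for Tgfa and -0.498 for Lrig1. Lrig1 has only its dim set among plain _at sets, where it gave -0.101 with EGF and 0.075 for MYC-TA minus the array labelled Miz1 kd. With the mean of all sets it gave 0.948 and -0.787. Members higher with EGF numbered 2 under the filter at the 75th percentile and 2 with the mean of sets. With the mean of sets the array labelled Miz1 kd had 0 members lower than Hmhi EGF. For MYC-TA minus the array labelled Miz1 kd, 1 member was lower with the mean of sets and 1 with plain _at sets, and the member median was -0.574 with the mean of sets. Pathway genes lower there were 2 with loess and 2 with the mean of sets. The median of the other receptors and ligands was 0.415 for MYC-TA minus Hmhi EGF and 0.159 for MYC-TA minus the array labelled Miz1 kd with plain _at sets, and 0.039 for MYC-TA minus the array labelled Miz1 kd without a filter. The ERK-responsive median with EGF was 0.375 with the mean of sets. Over all genes, the filter at the 75th percentile left 19 higher and 142 lower for the array labelled Miz1 kd minus Hmhi EGF, 92 higher for MYC-TA minus Hmhi EGF and 491 higher for MYC-TA minus the array labelled Miz1 kd. With the mean of sets, MYC-TA minus Hmhi EGF had 93 higher. The stricter filter counts fewer genes, and the mean of sets takes in dimmer sets. Signal over background limits Ereg, Nrg1, Btc and the dim sets of Egfr, Tgfa and Lrig1.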

Other observations

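The genes whose profile over the 4 arrays was most like that of a member were found by the root-mean-square difference of log2 signals, each gene taken minus its own mean. With 4 points, close likeness is common among 11805 genes, and nothing about shared function or control is meant. The nearest to Erbb3 were Plekha7, Adcy6 and Ltbp3, at 0.040, 0.040 and 0.042. Those to Nrg1 were Gpr146, Taf4b and Adcy6, at 0.013, 0.037 and 0.042, so Adcy6, an adenylyl cyclase, was near both. It read 11.01 in MYC-TA, 11.65 in the array labelled Miz1 kd, 11.52 in Hmhi EGF and 10.07 in Hmhi starved. The nearest to Lrig1 were Rpl12, Unc5b and Apobec1, at 0.040, 0.058 and 0.058. Rpl12 has many near-identical gene copies, so its probe sets are uncertain. The nearest to Btc were Gsta2, Lmcd1 and Calu, at 0.057, 0.071 and 0.073, and to Erbb2 Las1l, Nbeal1 and Kifc2, at 0.019, 0.021 and 0.022. Tgfa had Sc5d, an enzyme of cholesterol synthesis, at 0.048, then Dnajb9 at 0.095 and Mettl7a2 at 0.099. Sc5d read 10.75 in MYC-TA, 9.98 in the array labelled Miz1 kd, 10.96 in Hmhi EGF and 11.11 in Hmhi starved.

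The order of arrays shared by Erbb3, Nrg1 and Lrig1 was also that of 10 of 76 counted pathway genes, near the 10.4% of all genes that had it. Among the 10 were Lrig3, Adam10, Adam19, Rhbdf1 and Rhbdf2. Another 10 had the order of Btc, with Hmhi EGF highest, then MYC-TA, the array labelled Miz1 kd and Hmhi starved. These included Adam12, Adam17, Dusp4, Spry1 and Etv5, and 4.35% of all genes had this order. Both orders were looked at after the values were seen.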
